A study of Mus musculus with 12 samples.

Results

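The lesioned and the intact hemispheres of wild-type mice were compared 28 days after MCAo, in which the middle cerebral artery is occluded to model an ischemic stroke. The comparison takes 6 of the 12 RNA-sequencing libraries of the series, chosen by the labelled genotype and hemisphere: 3 wild-type ipsilateral libraries, called lesioned 1 to 3 here, and 3 wild-type contralateral libraries, called intact 1 to 3. These mice were C57BL6/J and received doxycycline (200 mg/kg), with induction 3 days after MCAo. The other 6 libraries came from both hemispheres of DKK1 mice, which carry the allele Gt(ROSA)26Sortm1.1(rtTA,EGFP)Nagy together with Hprttm1(tetO-Dkk1)Spdl and the transgene Tg(TCF/Lef1-lacZ)34Efu/J. In them, the same doxycycline drives a tetO transgene for the Wnt antagonist dickkopf-1 through the rtTA activator, and a TCF/Lef1-lacZ reporter is present too. Every group had MCAo and doxycycline, so the intact hemisphere is the other side of a brain with a stroke. Nothing in the labels ties a library to an animal, so the p-values rest on the spread between libraries alone, part of which may be technical.

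In the weeks after a stroke, dead tissue is cleared by microglia and by macrophages that derive from blood monocytes. These cells take up myelin and membrane lipid, digest them in lysosomes and export the cholesterol. Astrocytes around the lesion become reactive, fibroblasts lay down collagen in the core, and lymphocytes gather there while neurons of the territory are lost. The middle cerebral artery supplies much of the striatum and the lateral cortex.

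Per library, 24056557 to 26911840 counts fell on genes, and 19557 to 20272 genes had at least 1 count. Levels are given as CPM, counts scaled to a common library size. Brain transcripts were abundant in every library: the synaptic gene Snap25 had 846, 958 and 908 CPM in the intact and 570.2, 753 and 703 CPM in the lesioned libraries. The first principal component of the 6 libraries, with 76.9% of the variance, set the lesioned (36.2 to 79.7) apart from the intact libraries (−69.7 to −36.1). Lesioned 1 lay farthest out and intact 1 nearest to the lesioned side. Of the genes called higher, 85.3% had their highest lesioned value in lesioned 1, and of the genes called lower 78.0% had their lowest there. Intact 1 was the highest intact library for 58.3% of the genes called higher; Gpnmb, a gene of phagocytes, had 29, 2.69 and 4.05 CPM in the intact libraries. Intact 1 and intact 2 carried liver transcripts, whose values are given where they touch a result and in full near the end. Since these are whole pieces of tissue, fewer cells of a type and less RNA per cell cannot be told apart.

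Of 17612 genes tested, 6546 (37.2%) were called by edgeR at a Benjamini-Hochberg adjusted p under 0.05, 3740 higher (21.2%) and 2806 lower (15.9%) in the lesioned hemisphere. The libraries of the groups did not overlap for 6340 of the called genes and for 50.3% of all genes tested. A lack of overlap stated below for a called gene therefore adds little to its call. The shares of 21.2% and 15.9% stand beside the count of every list below. Lists and members were chosen with earlier results of these data known. A list count set against these shares therefore describes the list and is no independent support. The changes were unequal in size. The median log2 fold change was 1.0 among called rises and −0.31 among called falls, against 0.01 over all genes tested. Rises of over 2-fold were called for 1873 genes and falls of that size for 130. Without intact 1 and intact 2 together, 1789 genes were called higher and 321 lower, and without lesioned 1 the counts were 2780 and 1677. Leaving out intact 2 alone gave 2932 and 1777. With intact 1 and intact 2 left out, which leaves 1 intact library whose spread is taken from the other groups, 2 of 24 general, 9 of 18 striatal and 1 of 14 cortical neuron genes were called lower. The lists of choroid plexus (0), ependyma (1), thalamus and hypothalamus (1) and myelin (2) then had few rises, and 12 T and NK cell genes, 2 neutrophil genes and 5 sterol genes still passed.

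**Figure D1:**
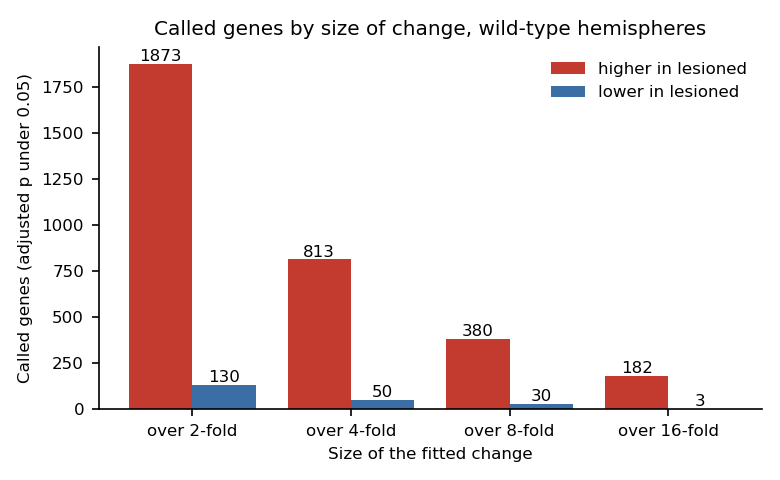
Number of genes called higher (red) or lower (blue) in the lesioned hemisphere of wild-type mice (vertical axis), by the least size of the fitted change (horizontal axis). Over 4-fold there were 813 rises and 50 falls, and over 16-fold 182 rises and 3 falls.

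Several of the largest rises were in genes with almost no counts in the intact hemisphere. Mefv, which encodes the inflammasome sensor pyrin (chromosome 16, 3707215 to 3718124, mm10), had 0.075, 0.0428 and 0 CPM in the intact and 8.86, 2.26 and 2.02 CPM in the lesioned libraries. The intact group held 3 counts of it in all, so its ratio was 109 (95% interval 37 to 531), an interval that covers counting error only. Clec4d, a C-type lectin of myeloid cells, had a ratio of 99.9 (95% interval 33.9 to 487). That of the chemokine gene Ccl4 was 80.1 (95% interval 27.1 to 391), and that of the nucleoside transporter gene Slc28a2 was 77.2 (95% interval 21.1 to 643). All 4 genes had 2 or 3 counts over the intact group and at least 1.62 CPM in each lesioned library. Cd5l, a secreted protein of macrophages, had 3.3, 0 and 0.0844 CPM in the intact and 169, 57.2 and 33 CPM in the lesioned libraries, a log2 fold change of 6.17 ± 0.91 (adjusted p = 0.000564), given here and below with its standard error. Its lesioned libraries differed 5-fold among themselves, and intact 1 was the only intact library above 0.1 CPM. Others among the 10 largest rises were Siglecg (6.02 ± 0.55), P2ry10 (5.71 ± 0.67) and Cxcl13 (5.77 ± 0.56), which encode 2 lymphocyte surface proteins and a B-cell-attracting chemokine, and the kinase gene Nrk (5.84 ± 0.57).

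**Figure D2:**
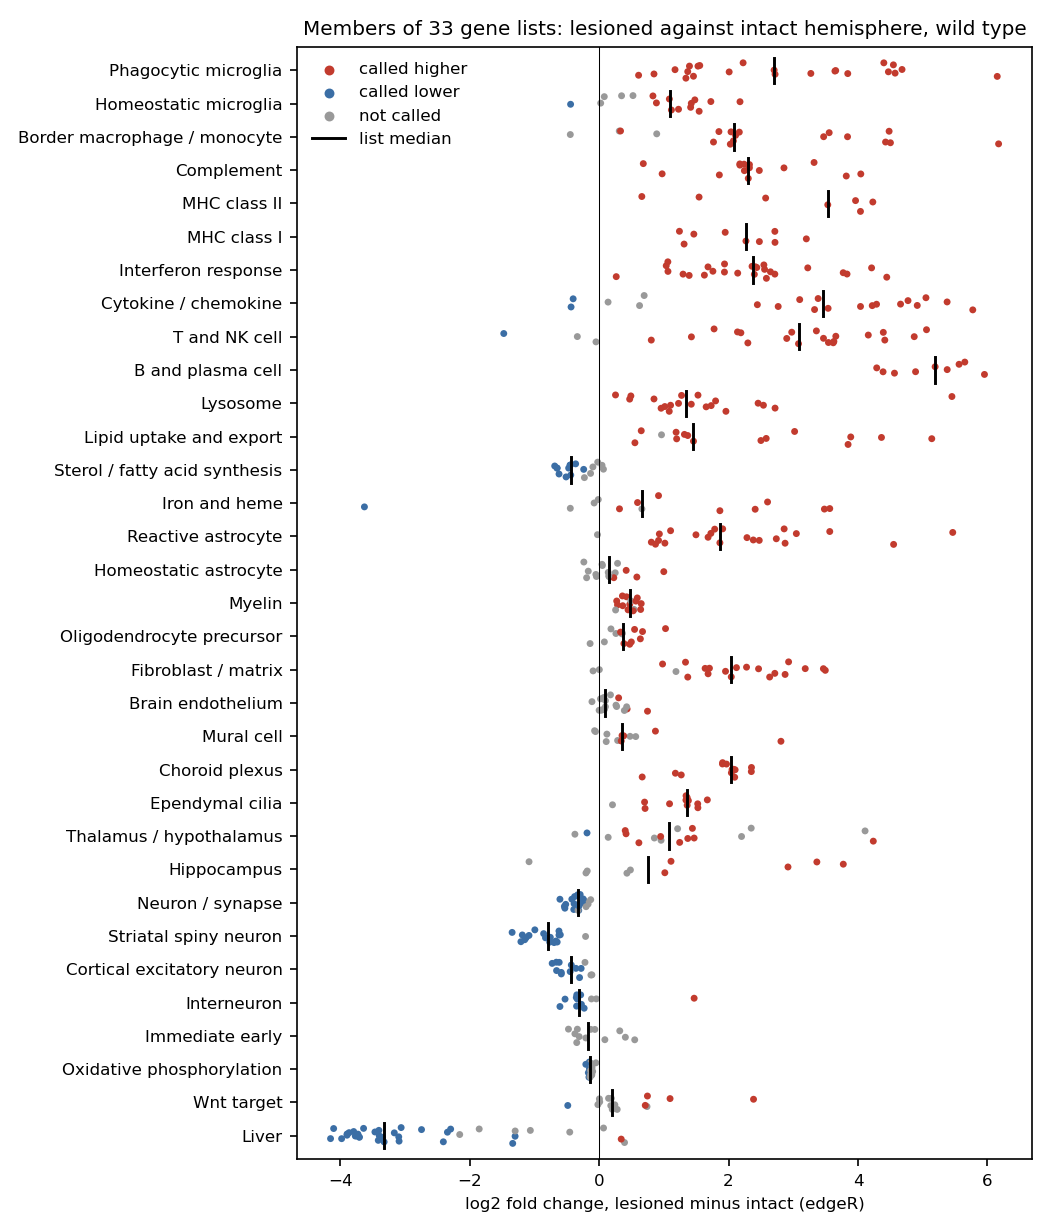
Log2 fold change (horizontal axis, lesioned minus intact) of each tested member of 33 gene lists (rows) in wild-type mice; red, called higher; blue, called lower; grey, not called; black bar, list median. Immune, lysosomal and matrix lists lie to the right, while neuronal and sterol synthesis lists lie a little to the left of 0 and the liver list far to the left.

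Genes of phagocytic microglia rose together: all 23 tested members of the disease-associated microglia list were called higher, with a median log2 fold change of 2.7, where 21.2% of all tested genes were called higher. Trem2, the lipid-sensing receptor of this state (chromosome 17, 48346401 to 48352276), had 17.9, 7.87 and 9.12 CPM in the intact and 98.7, 59 and 71.5 CPM in the lesioned libraries, a log2 fold change of 2.7 ± 0.28 (adjusted p = 6.26e-05). Its signalling partner Tyrobp rose by 2.23 ± 0.21. Each lesioned library was above each intact library for both. The lipid carrier Apoe, already abundant, went from 575, 481 and 509.7 CPM to 1666, 1247 and 1390.2 CPM (1.46 ± 0.12, adjusted p = 1.82e-05). The membrane glycoprotein gene Gpnmb had 335, 201 and 236 CPM in the lesioned libraries (4.4 ± 0.65, adjusted p = 0.000597), and the galectin gene Lgals3 had 5.22, 0.513 and 0.802 CPM in the intact and 79.6, 39.9 and 42.1 CPM in the lesioned libraries. For Itgax (CD11c) the values were 5.44, 0.171 and 0.507 CPM in the intact and 82.4, 34.6 and 32.3 CPM in the lesioned libraries. Intact 1 was 10 times or more above the other intact libraries for Itgax, and 7 times or more above them for Gpnmb, yet below every lesioned library. Without intact 1 the log2 fold change was 6.25, adjusted p = 1.11e-05 for Gpnmb and 7.17, adjusted p = 2.87e-05 for Itgax. The lysosomal marker Cd68 changed by 2.72 ± 0.23 (adjusted p = 2.76e-05), from 20.1, 12.1 and 11.7 CPM to 128, 72 and 89.9 CPM.

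Of 16 homeostatic microglia genes tested, 11 were called higher and 1 lower, with a median of 1.10. The growth factor receptor gene Csf1r had 87.6, 62.8 and 64 CPM in the intact and 227, 161 and 183 CPM in the lesioned libraries, a change of 1.41 ± 0.14 (adjusted p = 5.19e-05). The fractalkine receptor gene Cx3cr1 changed by 1.48 ± 0.27 (adjusted p = 0.00187), and the kinase-receptor gene Tgfbr1 by 1.55 ± 0.17 (adjusted p = 6.86e-05). The microglial surface gene Tmem119 had 25.6, 19 and 20.6 CPM in the intact and 47.5, 33.1 and 35.6 CPM in the lesioned libraries (0.83 ± 0.14, adjusted p = 0.00127), so its groups did not overlap. The purinergic receptor gene P2ry12, which marks microglia at rest, had 32.7, 20.9 and 20.5 CPM in the intact and 43.4, 31.1 and 32.1 CPM in the lesioned libraries. Its change of 0.52 ± 0.23 (adjusted p = 0.0945) did not pass, and intact 1 lay above both lesioned 2 and lesioned 3; it passed with replicate number as a block (adjusted p = 0.000395) and without intact 1 (adjusted p = 0.0194). Mef2c, which neurons also express, was the member that fell (−0.44 ± 0.11, adjusted p = 0.00828). No marker at rest was called lower apart from Mef2c, and the test of a difference between the lists was not made.

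Markers of border macrophages and monocytes were called higher for 15 of 18 genes (median 2.09). The sialoadhesin gene Siglec1 had 2.36, 0.47 and 0.549 CPM in the intact and 38.1, 13.2 and 23.9 CPM in the lesioned libraries, a change of 4.43 ± 0.55 (adjusted p = 0.000185). Ms4a6c rose by 4.5 ± 0.34 and Ms4a7 by 4.48 ± 0.63. The monocyte chemokine receptor gene Ccr2 had 1.43, 0.128 and 0.296 CPM in the intact and 15.4, 4.6 and 7.57 CPM in the lesioned libraries (3.84 ± 0.61, adjusted p = 0.00081). The scavenger receptor gene Stab1 had 35.1, 30.2 and 31.4 CPM in the intact and 167, 116 and 152 CPM in the lesioned libraries, with all lesioned libraries over 3 times the highest intact one. The perivascular markers gave mixed results: the mannose receptor gene Mrc1 changed by 2.03 ± 0.37 (adjusted p = 0.00176), while Cd163 had 4.01, 5.64 and 5.24 CPM in the intact and 3.18, 4.64 and 3.12 CPM in the lesioned libraries, a difference of −0.44 ± 0.2 (adjusted p = 0.105), and Lyve1 differed by 0.31 ± 0.38 (adjusted p = 0.552), neither of which passed. Cd163 was called lower with the block (adjusted p = 0.0333) and without lesioned 2 (adjusted p = 0.027).

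All 16 complement genes were called higher (median 2.31). The 3 chains of the recognition protein C1q are encoded by C1qa, C1qb and C1qc. C1qa had 56.5, 43.2 and 45.6 CPM in the intact and 283, 186 and 218 CPM in the lesioned libraries (2.24 ± 0.16, adjusted p = 1.47e-05), and C1qb and C1qc changed by 2.17 ± 0.14 and 2.25 ± 0.18. The next protease target in the classical pathway, C4b, had 86.1, 63.9 and 87.9 CPM in the intact and 453, 357 and 367 CPM in the lesioned libraries (2.31 ± 0.15, adjusted p = 1.36e-05). C3, the component on which all routes converge (chromosome 17, 57203967 to 57228136), went from 32.7, 6.46 and 3.46 CPM to 307, 186 and 222 CPM (4.04 ± 0.59, adjusted p = 0.000531). Hepatocytes also make C3, and intact 1 and intact 2, in which liver transcripts were found, held the most C3 of the intact libraries; the part of liver RNA in these values was not tested. Without intact 1 the change in C3 was 5.59, adjusted p = 1.11e-05. The receptor genes C3ar1 (3.82 ± 0.37), Itgam (2.18 ± 0.37) and Itgb2 (3.32 ± 0.32) rose.

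Antigen presentation genes were higher in the lesioned hemisphere without exception in both lists. Of class II genes 7 of 7 were called (median 3.53), and of class I genes 9 of 9 (median 2.27). H2-Aa, the class II alpha chain gene (chromosome 17, 34282744 to 34287823), had 8.85, 0.727 and 1.44 CPM in the intact and 104, 62.5 and 46.6 CPM in the lesioned libraries (4.23 ± 0.62, adjusted p = 0.000545). The invariant chain gene Cd74 had 23.4, 2.78 and 5.32 CPM in the intact and 165, 122 and 84.9 CPM in the lesioned libraries (3.53 ± 0.57, adjusted p = 0.000947). In both, intact 1 stood 4 times or more above the other intact libraries and under every lesioned library. Ciita, the master regulator of class II genes, changed by 1.54 ± 0.27 (adjusted p = 0.00125). Among class I genes the light chain gene B2m had 62.1, 49.3 and 46.7 CPM in the intact and 174, 128 and 135 CPM in the lesioned libraries (1.46 ± 0.13, adjusted p = 3.04e-05). H2-K1 rose by 2.27 ± 0.19 and H2-D1 by 1.95 ± 0.15; reads of near-identical H2 genes can be split in counting, so these levels are uncertain. Nlrc5, the class I counterpart of Ciita, changed by 3.2 ± 0.35 (adjusted p = 7.43e-05), and the immunoproteasome genes Psmb8 and Psmb9 both by 2.72.

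Interferon-stimulated genes rose in all 26 tested cases, with a median of 2.38. Oas1a, an antiviral RNA sensor, had 0.75, 0.299 and 0.422 CPM in the intact and 9.65, 5.31 and 6.51 CPM in the lesioned libraries (3.83 ± 0.31, adjusted p = 1.82e-05). Ifit1, which binds viral RNA, had 3.15, 1.45 and 2.36 CPM in the intact and 13.7, 9.08 and 8.22 CPM in the lesioned libraries, a change of 2.14 ± 0.29 (adjusted p = 0.000245), and Ifit3 had 8.89, 5.47 and 5.45 CPM in the intact and 27.5, 17.1 and 19.3 CPM in the lesioned libraries (1.68 ± 0.22, adjusted p = 0.000211). No lesioned library overlapped an intact one for these 3. The ubiquitin-like gene Isg15 changed by 1.39 ± 0.27 (adjusted p = 0.00258) and the transcription factor gene Irf7 by 2.65 ± 0.34 (adjusted p = 0.000208). Ifi204 (4.45 ± 0.44) and Mx1 (4.21 ± 0.6) were the largest rises of the list, and Stat2 (0.27 ± 0.07) the smallest. Without lesioned 1 the calls of Stat2 (adjusted p = 0.0611) and Gbp3 (0.0602) were lost; that of Stat2 was lost without intact 3 too (0.0584).

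Many interferon-stimulated genes are known targets of the factor ISGF3, which binds the interferon-stimulated response element, so the letters of that element were looked for in their promoters. The motif, GAAA and GAAA again after any 2 bases, was searched on both strands of the 300 bases from 250 before to 50 after each start (RefSeq, GRCm38.p6). Of the 26 listed genes 17 had a promoter sequence, and 13 of these (76.5%) held the motif, against 3.44% of all 32851 promoters. The share of all promoters counts each promoter. Shares of lists and of tested genes count a gene if any of its promoters holds the motif. Among tested genes with a promoter, 3.73% held the motif, with 6.17% of those called higher, 3.04% of those called lower and 3.07% of those not called. Stretches of 50 bases upstream of the start are shown for 5 of the genes, 5′ to 3′ on the strand of the gene, with 1 match in each in capitals; a match in capitals that reads TTTC is on the opposite strand.
Oas1a (chr5:120907526-120907575, minus strand): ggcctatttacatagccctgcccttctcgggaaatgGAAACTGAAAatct
Ifit1 (chr19:34640765-34640814, plus strand): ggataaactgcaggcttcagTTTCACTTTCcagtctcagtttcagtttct
Ifit3 (chr19:34583387-34583436, plus strand): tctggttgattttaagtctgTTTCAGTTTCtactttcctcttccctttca
Isg15 (chr4:156200861-156200910, minus strand): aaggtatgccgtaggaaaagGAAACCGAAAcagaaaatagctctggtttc
Bst2 (chr8:71537567-71537616, minus strand): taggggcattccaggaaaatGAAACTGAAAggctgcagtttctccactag
A match is a description of the letters and not evidence of binding. The class II and class I genes were searched for the Y box, CTGATTGG, in the same way. It lay in 2 of 4 class II and 4 of 7 class I promoters, and in 4.10% of all promoters. The matches of the class I genes Tap1 and Psmb9, which lie on opposite strands, are the same bases of chr17. This site was therefore counted for both genes, and their matches are not independent. Of tested genes, 4.99% of those called higher held the Y box and 6.65% of those not called. Matches in H2-Aa, H2-Eb1 and H2-D1 are shown with capitals as above, with CCAATCAG being the same motif on the opposite strand.
H2-Aa (chr17:34287845-34287894, minus strand): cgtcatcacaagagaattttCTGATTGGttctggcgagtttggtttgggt
H2-Eb1 (chr17:34305785-34305834, plus strand): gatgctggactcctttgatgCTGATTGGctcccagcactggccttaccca
H2-D1 (chr17:35263021-35263070, plus strand): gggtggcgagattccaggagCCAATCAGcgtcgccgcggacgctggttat
Of the 2 other motifs searched, the sterol element TCACNCCAC lay in 1 of 10 promoters of the sterol and fatty acid synthesis list (that of Hmgcs1) and in 1.24% of all promoters. The E-box TCACGTGA lay in 1 of 15 lysosomal promoters (that of Ctsd) and in 0.974% of all. Among tested genes with a promoter, 1.41% held the sterol element and 1.85% the E-box. For the E-box the share was 1.56% of those called higher and 1.91% of those not called.

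Among cytokines and chemokines 15 of 20 tested genes were called higher and 2 lower (median 3.46). The B-cell attractant Cxcl13 (chromosome 5, 95956939 to 95961068) had 0.938, 0.0428 and 0.211 CPM in the intact and 18.4, 22.2 and 28.7 CPM in the lesioned libraries. Unlike most rises, this one was lowest in lesioned 1. The monocyte attractants Ccl2 and Ccl7 had 0.375, 0.171 and 0.296 CPM in the intact and 4.82, 8.72 and 10.2 CPM in the lesioned libraries for Ccl2 (4.77 ± 0.69, adjusted p = 0.000442) and a change of 5.38 ± 0.63 (adjusted p = 0.00011) for Ccl7. The T cell attractant Ccl5 changed by 4.66 ± 0.56 (adjusted p = 0.000131) and Cxcl16, the ligand of Cxcr6, by 3.54 ± 0.44 (adjusted p = 0.000189). Il1b, the inflammatory cytokine, rose by 3.33 ± 0.59 but reached only 5.16, 2.5 and 2.25 CPM. Tnf had 3 counts over the intact libraries, all in intact 2, and 2.69, 0.832 and 0.609 CPM in the lesioned libraries, a ratio of 34.2 (95% interval 11.4 to 168). Tgfb1, a repair and scar cytokine, had 8.67, 7.35 and 8.02 CPM in the intact and 65.2, 29.2 and 36.7 CPM in the lesioned libraries (2.45 ± 0.26, adjusted p = 6.81e-05). The 2 that fell are made by neurons: Cx3cl1 (fractalkine) had 574, 609 and 548 CPM in the intact and 392, 464 and 425 CPM in the lesioned libraries (−0.43 ± 0.11, adjusted p = 0.0114) and Il34, a ligand of Csf1r, had 63.5, 64.6 and 59.5 CPM in the intact and 41.4, 53.2 and 47.5 CPM in the lesioned libraries (−0.4 ± 0.09, adjusted p = 0.00409).

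Most lymphocyte genes were called higher on the lesioned side, many from near 0. In the B and plasma cell list 9 of 9 tested genes were called higher, with a median of 5.19. Ms4a1 (CD20), a B-cell surface protein (chromosome 19, 11249679 to 11266149), had 0.113, 0 and 0.127 CPM in the intact and 3.81, 3.73 and 4.68 CPM in the lesioned libraries (5.56 ± 0.46, adjusted p = 2.1e-05), and the antigen-receptor genes Cd79a and Cd79b rose by 4.39 ± 0.41 and 5.65 ± 0.5. Jchain, which joins antibody units in plasma cells, had 1.61, 1.03 and 1.22 CPM in the intact and 42.8, 25.2 and 24.4 CPM in the lesioned libraries (4.56 ± 0.56, adjusted p = 0.000176). The lesioned libraries differed by less than 2-fold among themselves for these 4. In the T and NK cell list 20 of 23 were called higher and 1 lower (median 3.08). The T-cell receptor gene Cd3e had 0.113, 0.0428 and 0.127 CPM in the intact and 2.65, 1.98 and 1.64 CPM in the lesioned libraries (4.39 ± 0.36, adjusted p = 2.06e-05). The coreceptor gene Cd8a had 0.188, 0 and 0.169 CPM in the intact and 4.22, 4.6 and 2.28 CPM in the lesioned libraries (4.87 ± 0.56, adjusted p = 9.47e-05) and the killer-cell gene Nkg7 0.3, 0.0855 and 0.0422 CPM in the intact and 3.03, 1.94 and 0.799 CPM in the lesioned libraries (3.66 ± 0.62, adjusted p = 0.00106). All Cd3e values in lesioned tissue were over 12 times the highest intact value. Cd4 went the other way, from 31.5, 50.9 and 41.8 CPM to 14.2, 18.9 and 11.7 CPM (−1.47 ± 0.19, adjusted p = 0.000208). Foxp3 did not pass (−0.05 ± 0.1, adjusted p = 0.738), with 14.4 to 16.4 CPM in all 6 libraries. In the intact libraries Cd4 and Foxp3 lay far above Cd3e (0.0428 to 0.127 CPM) and Cd8a (0 to 0.188 CPM). Which cells the Cd4 and Foxp3 transcripts came from was not tested, so neither is read as a measure of T cells. Cytotoxic granule genes stayed low, with Gzmb at 0.71, 0.238 and 0.152 CPM and Prf1 at 1.12, 0.634 and 0.19 CPM in the lesioned libraries; the call of Gzmb (adjusted p = 0.0354) was lost without lesioned 1 (adjusted p = 0.159), intact 2 (0.106) or intact 3 (0.1).

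Neutrophil and mast cell genes were less uniform. Of 12 neutrophil genes, the granule genes Mpo, Elane, Ngp and Camp and the surface gene Ly6g were too low to test, Ly6g at 0 counts in all 6 libraries. Of the 6 that were tested 5 were called higher, among them Csf3r (2.31 ± 0.18, adjusted p = 1.82e-05) and the calcium-binding gene S100a8 (0.15, 0.0428 and 0.422 CPM in the intact and 2.5, 1.27 and 1.1 CPM in the lesioned libraries). Csf3r had 13.7, 14.1 and 14.3 CPM in the intact and 85.2, 59.3 and 64.1 CPM in the lesioned libraries, and the same gene is expressed by other myeloid cells. Mast cell genes rested on 1 library. Mcpt4, a mast cell protease, had 0.0375, 0 and 0 CPM in the intact and 3.96, 0.119 and 0.152 CPM in the lesioned libraries, with 1 count over the intact group and a ratio of 106 (95% interval 18.7 to 4241). It was the only 1 of 6 tested genes that was called (adjusted p = 0.0173); it lost the call without lesioned 1 (adjusted p = 0.0742), intact 2 (0.0607) or intact 3 (0.057) and in limma-voom (0.0537). The carboxypeptidase gene Cpa3 had 2.62, 0 and 0.19 CPM in the lesioned libraries. Leaving out any 1 of lesioned 1, intact 2 and intact 3 gave 0 calls, leaving out lesioned 2 gave 4 and lesioned 3 gave 3. With the block 4 were called higher and 1 lower.

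**Figure D3:**
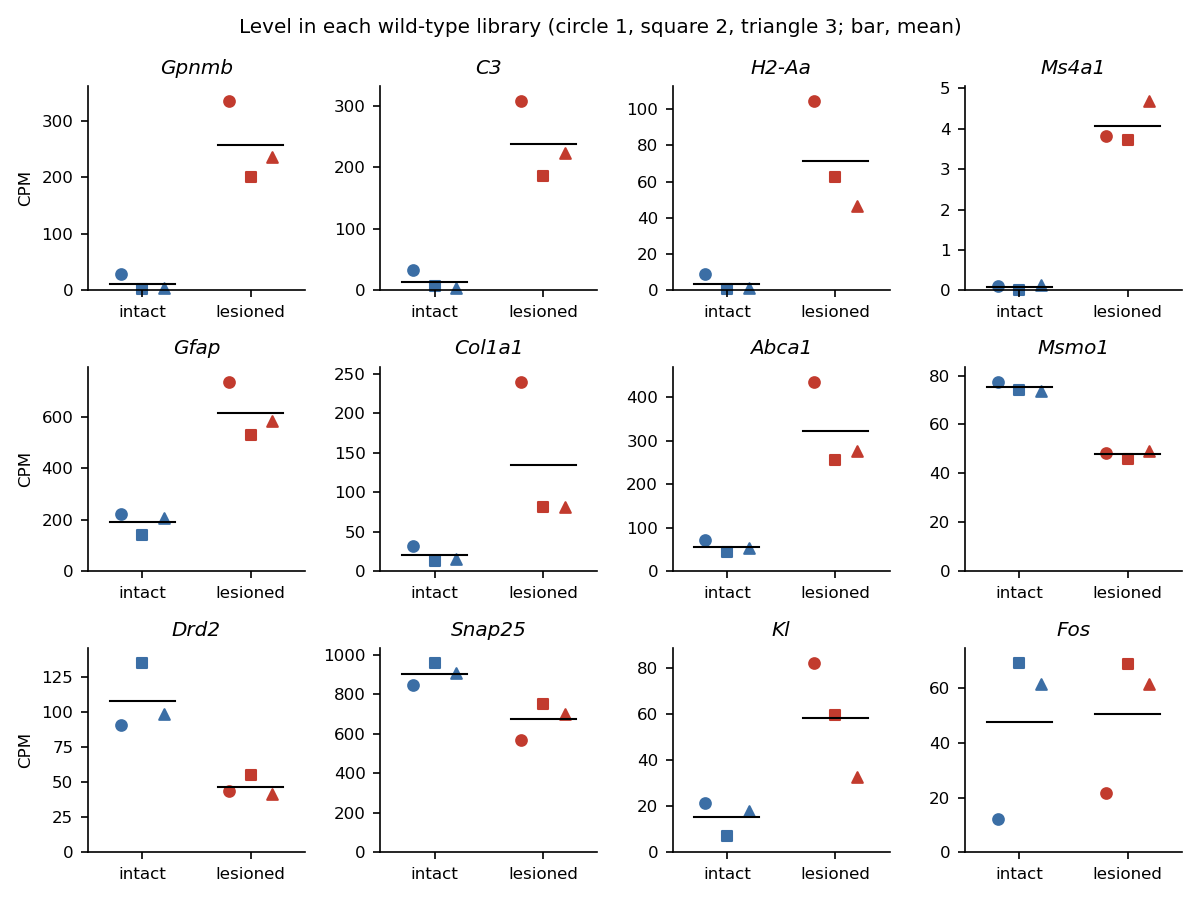
Level in CPM (vertical axes, each from 0) of 12 genes in the 3 intact (blue) and the 3 lesioned (red) wild-type libraries; circle, square and triangle are libraries 1, 2 and 3, and the bar is the mean. Lesioned and intact values overlap for Fos alone, whose low values are both from libraries numbered 1.

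Lysosomal genes were called higher in 20 of 20 cases (median 1.35). Lamp1, a membrane protein of every lysosome, changed by 0.49 ± 0.07 (adjusted p = 0.0003), Lamp2 by 0.96 ± 0.11 (adjusted p = 8.12e-05) and the protease gene Ctsd by 1.53 ± 0.13 (adjusted p = 2.25e-05). Ctsd had 273, 231 and 248 CPM in the intact and 872, 592 and 706 CPM in the lesioned libraries. Larger changes were in Atp6v0d2, a proton pump subunit of macrophages and osteoclasts, with 2.81, 0 and 0.0422 CPM in the intact and 77.3, 29.2 and 27 CPM in the lesioned libraries (5.45 ± 0.79, adjusted p = 0.000525), and in Laptm5 (2.46 ± 0.24), a leukocyte gene. The lipid-splitting enzyme gene Lipa also rose, at 29.3, 27.6 and 27.4 CPM in the intact and 126, 70.5 and 69 CPM in the lesioned libraries (1.65 ± 0.2, adjusted p = 0.000161), and so did Npc2, which hands on cholesterol (1.27 ± 0.12). Psap, abundant in neurons, rose least (0.25 ± 0.07, adjusted p = 0.0196) and lost its call without intact 1 (adjusted p = 0.0719) or lesioned 1 (0.0714).

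Genes of cholesterol efflux and lipid storage rose while genes of sterol synthesis fell. Of the uptake and export list 14 of 15 were called higher (median 1.46). The efflux pump gene Abca1 (chromosome 4, 53030789 to 53159895) had 72.3, 44.9 and 53.3 CPM in the intact and 434, 255.3 and 277 CPM in the lesioned libraries (2.5 ± 0.21, adjusted p = 2.66e-05), and its partner Abcg1 changed by 0.65 ± 0.08 (adjusted p = 0.000103). The lipid-droplet coat gene Plin2 had 12, 8.94 and 10.2 CPM in the intact and 68, 86.2 and 99.8 CPM in the lesioned libraries (3.02 ± 0.33, adjusted p = 7.96e-05). Lesioned libraries were 5 times or more above every intact one for Plin2, and lesioned 1 was the lowest of the 3. The scavenger receptors Msr1 (4.36 ± 0.68) and Cd36 (3.85 ± 0.64) and the fatty acid carrier Fabp4 (5.14 ± 0.44) rose as well. Apoc1 did not pass (14.1, 6.2 and 1.69 CPM in the intact and 17.3, 10.6 and 15.2 CPM in the lesioned libraries), and its intact values fell from 1 to 3 in the order of the liver transcripts. Without intact 1 it was called higher (1.86, adjusted p = 0.00891), which made 15 of 15. Of 17 genes of sterol and fatty acid synthesis 11 were called lower and 0 higher, where 15.9% of all tested genes were called lower (median −0.44). Msmo1, a sterol demethylation enzyme (chromosome 8, 64718123 to 64733578), had 77.3, 74.2 and 73.9 CPM in the intact and 48.4, 46.1 and 49.1 CPM in the lesioned libraries (−0.65 ± 0.05, adjusted p = 1.82e-05). All 3 lesioned libraries lay below all 3 intact libraries for Msmo1. The fatty acid genes Fasn (−0.02 ± 0.07), Scd1 (0.07 ± 0.06) and Scd2 (0.05 ± 0.08) did not pass. Intact 1 was the highest library for most of the sterol genes, and without it 7 were called lower; Hmgcs1 (−0.47 ± 0.13, adjusted p = 0.0156) and Sqle (−0.36 ± 0.1, adjusted p = 0.0158) then had adjusted p = 0.0515 and 0.0567.

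Iron and heme genes gave 8 rises and 1 fall among 13, where 21.2% of all tested genes were called higher and 15.9% lower. Heme oxygenase (Hmox1), which breaks down heme, had 6.15, 5.94 and 6 CPM in the intact and 45.1, 33.1 and 31.9 CPM in the lesioned libraries (2.6 ± 0.17, adjusted p = 1.32e-05). The lesioned values were over 5 times the intact ones and the intact libraries differed little. The ferritin chain genes Ftl1 and Fth1 changed by 0.92 ± 0.11 (adjusted p = 0.000165) and 0.32 ± 0.09 (adjusted p = 0.0133); without intact 1 the second had adjusted p = 0.0501. Slc11a1, the metal pump of phagosomes, changed by 3.48 ± 0.36 (adjusted p = 6.71e-05). Lcn2, which binds bacterial iron carriers and is made by reactive astrocytes, had 3, 7.4 and 7.47 CPM in the intact and 65.3, 57.4 and 87.1 CPM in the lesioned libraries (3.56 ± 0.41, adjusted p = 0.00012). The gene that fell was the liver hormone Hamp (hepcidin), with 6.42, 1.97 and 0.211 CPM in the intact and 0.449, 0.119 and 0.114 CPM in the lesioned libraries (−3.63 ± 0.93, adjusted p = 0.0108). Without intact 1 and intact 2 its log2 difference was 0.12, adjusted p = 0.943, and limma-voom did not call it (adjusted p = 0.109).

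Reactive astrocyte genes were called higher for 22 of 23 (median 1.87). Gfap, the filament gene by which reactive astrocytes are known (chromosome 11, 102887336 to 102897200), had 223, 143 and 208 CPM in the intact and 733, 529.7 and 582 CPM in the lesioned libraries (1.68 ± 0.16, adjusted p = 4.27e-05). Vim, another filament gene, had 49.4, 41 and 46.6 CPM in the intact and 199, 148 and 168 CPM in the lesioned libraries (1.91 ± 0.11, adjusted p = 1.08e-05), and the secreted inhibitor Serpina3n 20.3, 21.2 and 31.8 CPM in the intact and 199.9, 137 and 194 CPM in the lesioned libraries (2.86 ± 0.25, adjusted p = 2.95e-05). Aspg changed by 2.74 ± 0.21 (adjusted p = 1.82e-05) and Ggta1 by 2.29 ± 0.14 (adjusted p = 1.08e-05). Timp1, an inhibitor of matrix proteases, had 1.09, 0.812 and 0.971 CPM in the intact and 12.7, 4.72 and 3.73 CPM in the lesioned libraries (2.87 ± 0.44, adjusted p = 0.000563). Each of these separated the groups without overlap. Of 16 genes of homeostatic astrocytes 4 were called higher, a share near the 21.2% of all tested genes, with a median of 0.15. Aqp4, the water channel of astrocyte endfeet, had 135, 74.4 and 86.7 CPM in the intact and 262, 164 and 166 CPM in the lesioned libraries (1.0 ± 0.27, adjusted p = 0.0144), a call lost without lesioned 1 (adjusted p = 0.0824), intact 2 (0.0602) or intact 3 (0.0537). The glutamate transporter genes Slc1a2 (−0.19 ± 0.09, adjusted p = 0.122) and Slc1a3 (0.16 ± 0.06, adjusted p = 0.0588) did not pass; without intact 1 the second had adjusted p = 0.049. The gap-junction gene Gja1 changed by 0.42 ± 0.06 (adjusted p = 0.000293), and Sox9, a nuclear factor of astrocytes, by 0.58 ± 0.05 (adjusted p = 2.7e-05). With the block 7 of the 16 were called higher and 2 lower.

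Myelin genes were modestly higher: 12 of 15 were called (median 0.47). Mbp had 909, 966 and 1074 CPM in the intact and 1206, 1165 and 1221 CPM in the lesioned libraries (0.28 ± 0.07, adjusted p = 0.0114). Without lesioned 1 or without intact 2, 7 were called, and Mog (adjusted p = 0.102) was among those lost without lesioned 1; it was lost without intact 2 (0.0935) and intact 3 (0.0548) too. The tight-junction gene Cldn11 (0.65 ± 0.07, adjusted p = 6.86e-05) and the transcription factor gene Myrf (0.57 ± 0.1, adjusted p = 0.0011) had the firmest changes. Of 14 genes of oligodendrocyte precursors 8 were called higher (median 0.37), among them the growth factor receptor Pdgfra (63.7, 53.7 and 57.6 CPM in the intact and 100.2, 85 and 93.7 CPM in the lesioned libraries, 0.67 ± 0.12, adjusted p = 0.00177) and Sox10 (0.5 ± 0.07, adjusted p = 0.000345). Olig1 (0.26 ± 0.15, adjusted p = 0.193) and Olig2 (0.36 ± 0.15, adjusted p = 0.0728) did not pass, but with the block both did (adjusted p = 0.00203 and 0.000313), and Olig2 also passed without intact 1 (0.00688). The block gave 11 rises among the precursor genes and 15 among the myelin genes. No member of either list was called lower.

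Fibroblast and scar matrix genes were called higher for 18 of 21 (median 2.04). The collagen gene Col1a1 (chromosome 11, 94936224 to 94953042) had 32.2, 13.4 and 15.3 CPM in the intact and 239, 81.2 and 82.1 CPM in the lesioned libraries (2.72 ± 0.46, adjusted p = 0.00134), and Col1a2 and Col3a1 changed by 2.46 ± 0.4 and 3.47 ± 0.67. Lesioned 1 held nearly 3 times the Col1a1 of the other lesioned libraries, which in turn lay over 2 times above the highest intact value. The small proteoglycan Dcn had 18.9, 8 and 10.4 CPM in the intact and 130.3, 78.9 and 77 CPM in the lesioned libraries (2.93 ± 0.31, adjusted p = 6.62e-05) and Lum changed by 3.5 ± 0.47 (adjusted p = 0.000279). Postn, a matrix protein of scars, had 4.61, 2.39 and 2.83 CPM in the intact and 23.5, 18.4 and 19.7 CPM in the lesioned libraries (2.64 ± 0.22, adjusted p = 2.06e-05), and the collagen crosslinker Lox changed by 3.19 ± 0.39 (adjusted p = 0.000156). Col5a1 (0.0 ± 0.14, adjusted p = 0.986) and Col6a1 (−0.09 ± 0.1, adjusted p = 0.491) did not pass.

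Of 17 genes of brain endothelium 3 were called higher (median 0.10), where 21.2% of all tested genes were: Pecam1 (0.43 ± 0.08, adjusted p = 0.00231), Cdh5 (0.75 ± 0.17, adjusted p = 0.00577) and Abcb1a (0.3 ± 0.11, adjusted p = 0.0447). The call of Abcb1a was lost without intact 2 (adjusted p = 0.151), intact 3 (0.129), lesioned 1 (0.175) or lesioned 2 (0.101) and in limma-voom (0.0573). The barrier genes Cldn5 (54.9, 58.5 and 54 CPM in the intact and 60.2, 62.1 and 66.7 CPM in the lesioned libraries, 0.18 ± 0.07, adjusted p = 0.0576) and Slc2a1 (0.1 ± 0.16, adjusted p = 0.656) did not pass, though Cldn5 did with the block (adjusted p = 0.0195). Mfsd2a, a lipid transporter of the barrier, had 19.8, 41.6 and 46 CPM in the intact and 19.3, 36.8 and 43.3 CPM in the lesioned libraries, low in both libraries numbered 1. With the block 8 of the 17 were called higher, and without intact 1 there were 5. The same 21.2% stands beside the rises of the activation and mural lists that follow. Of 12 genes of endothelial activation 6 were called higher and 1 lower (median 0.94), with Icam1, which holds leukocytes at the wall, at 4.39, 5.13 and 4.73 CPM in the intact and 42.6, 27 and 27.3 CPM in the lesioned libraries (2.77 ± 0.27, adjusted p = 4.39e-05) and Vcam1 at 32.1, 24.7 and 27 CPM in the intact and 71.2, 70.2 and 66.6 CPM in the lesioned libraries (1.31 ± 0.17, adjusted p = 0.000201). The selectin genes Selp (2.52 ± 0.79, adjusted p = 0.027) and Sele (1.94 ± 0.56, adjusted p = 0.0178) rose from under 1 CPM; Selp lost its call without intact 1 (adjusted p = 0.0701), intact 2 (0.064), intact 3 (0.0587) or lesioned 3 (0.078), and Sele without lesioned 3 (0.0657). In all, 4 of the list were called higher without intact 1 or without intact 3, and 3 without lesioned 3. Ackr1 fell (−0.37 ± 0.09, adjusted p = 0.00919). Of 12 mural cell genes 5 were called higher (median 0.35), led by the peptidase gene Anpep (11, 8.17 and 7.14 CPM in the intact and 94.5, 48.5 and 41.8 CPM in the lesioned libraries, 2.81 ± 0.31, adjusted p = 9.06e-05), which other cells also express, and Pdgfrb (0.87 ± 0.14, adjusted p = 0.000967). The pericyte genes Rgs5 (−0.07 ± 0.1, adjusted p = 0.62), Kcnj8 (0.11 ± 0.14, adjusted p = 0.585) and Abcc9 (0.12 ± 0.09, adjusted p = 0.306) did not pass. Without intact 2 the count for mural genes was 2, and without intact 3 or lesioned 1 it was 3.

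Neuronal genes fell by small amounts. Of 24 general neuron and synapse genes 19 were called lower and 0 higher (median −0.33). Rbfox3, the nuclear marker NeuN (chromosome 11, 118489760 to 118909572), had 345, 379.5 and 345 CPM in the intact and 211, 274 and 252.6 CPM in the lesioned libraries (−0.54 ± 0.09, adjusted p = 0.000897). Snap25, of the vesicle fusion complex, changed by −0.42 ± 0.09 (adjusted p = 0.0046), the vesicle sensor Syt1 by −0.34 ± 0.09 (adjusted p = 0.0107), and Nrgn, a postsynaptic protein, by −0.61 ± 0.1 (adjusted p = 0.00066). The groups did not overlap for these 4, and lesioned 1 was lowest in each. With intact 1 and intact 2 both left out, 2 of the 24 were called.

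For striatal projection neurons 17 of 18 genes were called lower with a median of −0.80. Drd2, the dopamine receptor of the indirect pathway (chromosome 9, 49340403 to 49408168), had 90.7, 135 and 98.8 CPM in the intact and 43.6, 55.4 and 41.3 CPM in the lesioned libraries (−1.21 ± 0.19, adjusted p = 0.000719). Drd1, that of the direct pathway, had 104, 168 and 138 CPM in the intact and 50.7, 85.7 and 57 CPM in the lesioned libraries (−1.08 ± 0.25, adjusted p = 0.00628). The adenosine receptor Adora2a had 116, 161 and 124 CPM in the intact and 52, 74.1 and 54.7 CPM in the lesioned libraries (−1.15 ± 0.19, adjusted p = 0.00108), and the phosphatase inhibitor Ppp1r1b (DARPP-32) 307, 469 and 389.7 CPM in the intact and 184, 261 and 212 CPM in the lesioned libraries (−0.83 ± 0.16, adjusted p = 0.00258). Intact 2 was the highest intact library and lesioned 2 the highest lesioned library for all 4. The orphan receptor Gpr6 changed by −1.34 ± 0.23 (adjusted p = 0.00136) and Rasd2 by −1.13 ± 0.17 (adjusted p = 0.000614). Pdyn, the dynorphin precursor, did not pass (−0.21 ± 0.12, adjusted p = 0.21). Cortical excitatory neuron genes were called lower for 11 of 14 (median −0.44), among them the upper-layer genes Cux2 (−0.62 ± 0.11, adjusted p = 0.00114) and Rorb (−0.73 ± 0.17, adjusted p = 0.00654). Fezf2, of deep layers, did not pass (−0.13 ± 0.15, adjusted p = 0.533), nor did Neurod6 (−0.11 ± 0.14, adjusted p = 0.575). Interneuron genes were called lower for 9 of 12 and higher for 1 (median −0.31). Vip had 30.8, 34 and 30.7 CPM in the intact and 14.7, 26.2 and 21.9 CPM in the lesioned libraries (−0.6 ± 0.16, adjusted p = 0.012), and Pvalb changed by −0.35 ± 0.1 (adjusted p = 0.0186) and Sst by −0.28 ± 0.09 (adjusted p = 0.0283). The call of Pvalb was lost without intact 3 (adjusted p = 0.0615) and that of Sst without lesioned 1 (0.11), intact 2 (0.0957), intact 3 (0.0534) or lesioned 3 (0.059). In all, 4 of the list were called lower without lesioned 1 or without intact 2, and 5 without intact 3 or without lesioned 3. The member that rose was Calb2 (calretinin), with 13.9, 8.42 and 21.7 CPM in the intact and 38.6, 29.3 and 53.9 CPM in the lesioned libraries (1.47 ± 0.41, adjusted p = 0.0159), also a marker of thalamic and hypothalamic cells; its call was lost without lesioned 1 (adjusted p = 0.0508), intact 2 (0.0606) or lesioned 3 (0.0559).

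The largest falls outside the liver transcripts were ranked, after the values were seen, among genes whose intact libraries lay within 2-fold of each other. Tfap2d, a transcription factor gene, had 3.19, 2.27 and 2.36 CPM in the intact and 0.149, 0.832 and 0.152 CPM in the lesioned libraries (−2.79 ± 0.76, adjusted p = 0.0142), a call lost without lesioned 1 or lesioned 3. Ido1, an enzyme of tryptophan breakdown, had 5.7, 9.02 and 6.97 CPM in the intact and 1.68, 2.34 and 2.17 CPM in the lesioned libraries (−1.81 ± 0.22, adjusted p = 0.000137). The phosphatase gene Ptprv had 41.4, 63.9 and 51.5 CPM in the intact and 11.9, 21.2 and 15 CPM in the lesioned libraries (−1.7 ± 0.23, adjusted p = 0.000284), and its groups were over 1.5-fold apart at the nearest. Gpr139 (−1.54 ± 0.29), Syndig1l (−1.42 ± 0.19), Col24a1 (−1.46 ± 0.27), Clspn (−1.68 ± 0.28), Rpe65 (−1.5 ± 0.35), Olfr1393 (−1.97 ± 0.31) and Cd4 made up the 10. Of the 130 genes that fell over 2-fold, 67 had such even intact libraries and 29 were on the liver list.

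Markers of deeper or other brain regions rose in part, with uneven libraries. Over all tested genes, 21.2% were called higher and 15.9% lower. Of 18 genes of thalamus and hypothalamus 9 were called higher and 1 lower (median 1.09); the fall, in Rora (−0.19 ± 0.06, adjusted p = 0.0359), was lost without intact 1, intact 3 or lesioned 1. The thalamic kinase gene Prkcd had 30.8, 26.7 and 59.5 CPM in the intact and 121, 80.7 and 116 CPM in the lesioned libraries (1.44 ± 0.28, adjusted p = 0.00283) and Tcf7l2, a thalamic transcription factor gene, 11.5, 12.6 and 23.6 CPM in the intact and 41.6, 24.5 and 46.6 CPM in the lesioned libraries (1.25 ± 0.31, adjusted p = 0.0098). The hypothalamic peptide gene Hcrt (orexin) had 0.188, 0.214 and 2.11 CPM in the intact and 27.8, 0.277 and 14.8 CPM in the lesioned libraries (4.1 ± 1.81, adjusted p = 0.0976) and Pmch 0.188, 0.128 and 10.6 CPM in the intact and 30.7, 1.35 and 22.8 CPM in the lesioned libraries (2.35 ± 1.48, adjusted p = 0.239). Neither passed, though Hcrt did with the block (adjusted p = 0.0241) and Pmch without intact 3 (adjusted p = 0.0432). Both were high in lesioned 1 and lesioned 3 and near 0 in intact 1, intact 2 and, for Hcrt, lesioned 2, so the groups overlapped. Oxt changed by 4.24 ± 1.05 (adjusted p = 0.00944), a call that limma-voom did not make (adjusted p = 0.098). Without intact 2 or without lesioned 3 the count of rises was 5. Of 10 hippocampal genes 5 were called higher (median 0.75), with the dentate marker Prox1 at 32.7, 25.7 and 32.3 CPM in the intact and 85.7, 46.3 and 64 CPM in the lesioned libraries (1.11 ± 0.18, adjusted p = 0.000802); 3 were called without lesioned 1. The part of dissection borders in these values was not tested.

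Choroid plexus genes were called higher in 13 of 13 cases (median 2.04). Ttr, the thyroid hormone carrier of choroid plexus, had 91.2, 48.7 and 88 CPM in the intact and 208, 180 and 128 CPM in the lesioned libraries (1.18 ± 0.32, adjusted p = 0.0159). The call was lost with the block (adjusted p = 0.0525) and without lesioned 1 (adjusted p = 0.0822) or intact 2 (0.0569). Kl (klotho) had 21.3, 6.93 and 18.2 CPM in the intact and 82.3, 60 and 32.7 CPM in the lesioned libraries (1.91 ± 0.47, adjusted p = 0.00992), and without lesioned 1 adjusted p = 0.056. In all, 4 of 13 were called without lesioned 1 and 8 without intact 2. Ependymal cilia genes were called higher for 11 of 12 (median 1.35), among them Foxj1, which drives motile cilia (14.6, 13.9 and 17.9 CPM in the intact and 49.5, 34 and 35.8 CPM in the lesioned libraries, 1.36 ± 0.16, adjusted p = 0.000129), and the dynein gene Dnah11 (1.67 ± 0.34, adjusted p = 0.00323).

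**Figure D4:**
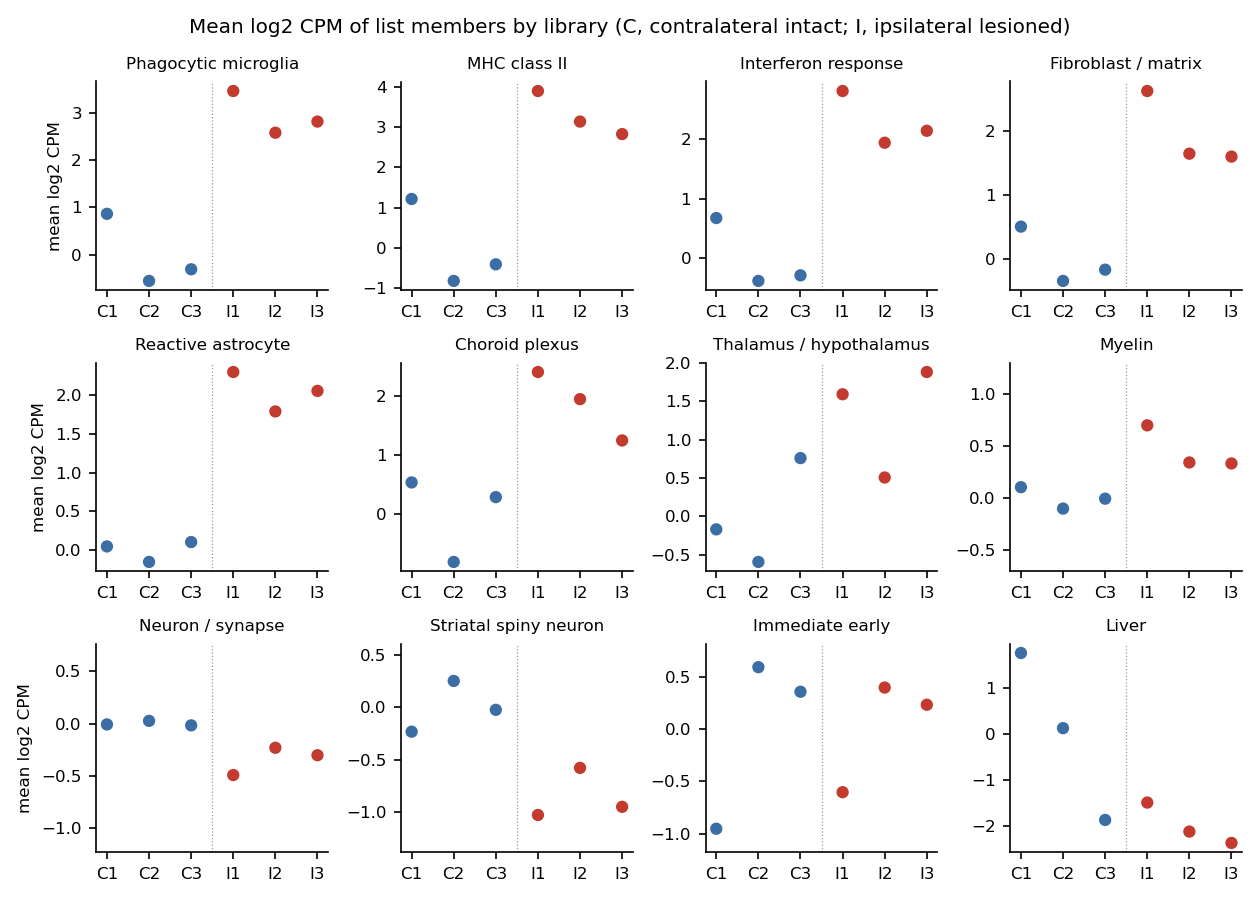
Mean log2 CPM over the members of 12 gene lists in each wild-type library, minus the same mean over the intact libraries. The vertical axes, labelled mean log2 CPM, show this difference and each span at least 2 units. Intact libraries are in blue and lesioned libraries in red. Lesioned 1 is highest for the phagocyte list (3.45, against 2.57 and 2.81 in the other lesioned libraries) and intact 1 is the highest intact library there (0.86, against −0.55 and −0.31), while immediate early genes are low in both libraries numbered 1.

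Growth, repair and activity genes gave mixed results. Their counts stand beside 21.2% of all tested genes called higher and 15.9% called lower. Of 13 proliferation genes 9 were called higher (median 0.84), with Mki67, present in dividing cells, at 3.11, 4.02 and 4.26 CPM in the intact and 13.5, 7.97 and 8.94 CPM in the lesioned libraries (1.42 ± 0.23, adjusted p = 0.00074) and Cdk1 at 2.44 ± 0.4 (adjusted p = 0.000845); 5 were called without lesioned 1 and 6 without intact 3. Of 12 neurogenesis genes 6 were called higher (median 0.34), but Dcx, the marker of new neurons, did not pass (65.6, 49.2 and 55.6 CPM in the intact and 54.2, 47.6 and 51.6 CPM in the lesioned libraries, −0.15 ± 0.13, adjusted p = 0.405). Eomes, which intermediate progenitors and also NK and T cells express, had 0.0375, 0.0428 and 0.127 CPM in the intact and 1.57, 2.66 and 1.18 CPM in the lesioned libraries (4.63 ± 0.49, adjusted p = 5.62e-05). Of 9 tested axon injury genes Atf3 rose (1.95, 2.39 and 2.66 CPM in the intact and 29.6, 12.9 and 19.2 CPM in the lesioned libraries, 3.14 ± 0.37, adjusted p = 0.00012), Stmn2 (−0.26 ± 0.07, adjusted p = 0.0128) and Npy (−0.34 ± 0.11, adjusted p = 0.0263) fell, and Gap43 did not pass (−0.2 ± 0.1, adjusted p = 0.126), but was called lower with the block (adjusted p = 0.00789). Npy lost its call without lesioned 1 (adjusted p = 0.102), intact 2 (0.0929) or lesioned 3 (0.0756); 1 of the list was called lower without intact 2, lesioned 1 or lesioned 3, and 2 were called higher without intact 3 or lesioned 2. Of 15 growth factor genes 7 were called higher (median 0.68), among them Igf1 (17.9, 9.19 and 11.8 CPM in the intact and 86.1, 33.3 and 37.9 CPM in the lesioned libraries, 2.01 ± 0.34, adjusted p = 0.00113) and Igf2 (133, 71 and 99.3 CPM in the intact and 341, 276 and 292 CPM in the lesioned libraries, 1.58 ± 0.2, adjusted p = 0.000213). Bdnf (−0.21 ± 0.16, adjusted p = 0.32) and Vegfa (−0.15 ± 0.07, adjusted p = 0.116) did not pass, though Vegfa was called lower with the block (adjusted p = 0.027) and without lesioned 2 (adjusted p = 0.0305). Igf1 was over 2 times higher in lesioned 1 than in the other lesioned libraries.

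Wnt target and regulator genes were close to the background of all genes, with 4 of 15 called higher and 1 lower (median 0.20). The feedback gene Axin2 had 47.7, 46.7 and 49.7 CPM in the intact and 56.3, 46.5 and 56.6 CPM in the lesioned libraries (0.15 ± 0.1, adjusted p = 0.256), and Lef1 differed by 0.28 ± 0.13 (adjusted p = 0.103); neither passed, though Lef1 did with the block (adjusted p = 0.0299). Dkk2, a dickkopf of the same family as the transgene, had 1.24, 0.77 and 0.887 CPM in the intact and 5.53, 3.96 and 5.78 CPM in the lesioned libraries (2.39 ± 0.23, adjusted p = 3.75e-05). Sfrp1 (0.75 ± 0.14, adjusted p = 0.0022) and Rnf43 (0.71 ± 0.17, adjusted p = 0.00725) rose as well, and Fzd10 (adjusted p = 0.0396) lost its call without lesioned 1 (adjusted p = 0.2), intact 2 (0.134) or intact 3 (0.105). Lgr5 fell (−0.48 ± 0.15, adjusted p = 0.0254), a call lost without lesioned 1 (adjusted p = 0.0985) and without intact 2, intact 3 or lesioned 3. With the block 7 were called higher. Of 20 nuclear genes of oxidative phosphorylation 7 were called lower (median −0.13), where 15.9% of all tested genes were. But 0 of the 20 were called without lesioned 1 or without intact 3, 1 without intact 2 and 3 without lesioned 3. Their range was narrow, and Cox6a1 (95.3, 106 and 103 CPM in the intact and 82.3, 89 and 93 CPM in the lesioned libraries) had the largest change of the list (−0.2 ± 0.06, adjusted p = 0.0207). The call was lost without lesioned 1 (adjusted p = 0.0827), intact 2 (0.0845) or intact 3 (0.0595).

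Immediate early genes, which neurons switch on within minutes of activity, did not pass in any of 12 cases (median −0.17, and 0.0014 with the deposited TPM), where 37.2% of all tested genes did. Limma-voom called 0 as well, and the fit of the deposited TPM called 1 higher and 0 lower. Fos had 12.3, 69.2 and 61.6 CPM in the intact and 21.6, 68.9 and 61.5 CPM in the lesioned libraries (0.09 ± 0.62, adjusted p = 0.926). Arc had 107, 395 and 329 CPM in the intact and 91, 306 and 256.6 CPM in the lesioned libraries (−0.35 ± 0.5, adjusted p = 0.622) and Egr2 4.28, 43.4 and 35 CPM in the intact and 10.8, 31.8 and 22.7 CPM in the lesioned libraries (−0.34 ± 0.68, adjusted p = 0.731). In 9 of the 12 genes both libraries numbered 1 were lower than the other 4. Hemoglobin transcripts also went by number, with Hba-a1 at 14.1, 4.36 and 2.87 CPM in the intact and 14.5, 6.26 and 3.08 CPM in the lesioned libraries, although near-identical alpha-globin copies cannot be told apart. With the number as a block, 3 immediate early genes were called higher and 4 lower, Arc among the latter (adjusted p = 0.00699).

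Liver transcripts were found in 2 of the 3 intact libraries and made up most of the largest falls. Their list of 48 genes summed to 615, 228 and 97.6 CPM in intact 1 to 3 and to 134, 109 and 102 CPM in lesioned 1 to 3, while the DKK1 intact libraries held 83.1 to 92.6 CPM and the DKK1 lesioned libraries 119.6 to 121.7 CPM. Much of the sum in the other libraries was Vtn, which pericytes also express and which was the 1 member called higher (74.1, 54.6 and 54.6 CPM in the intact and 84.5, 76.1 and 71.9 CPM in the lesioned libraries, 0.34 ± 0.12, adjusted p = 0.0392); its call was lost without any 1 of intact 2, intact 3, lesioned 1 and lesioned 2. Albumin (Alb, chromosome 5, 90460870 to 90476602) had 87.8, 31.7 and 5.45 CPM in the intact and 6.65, 2.5 and 3.12 CPM in the lesioned libraries, a change of −3.35 ± 0.77 (adjusted p = 0.00682). The apolipoprotein gene Apoa2 had 30.9, 15.6 and 8.36 CPM in the intact and 8.9, 7.33 and 6.13 CPM in the lesioned libraries (−1.3 ± 0.35, adjusted p = 0.0146). Mup3, a urinary protein gene with near-identical copies and so uncertain, had 25.7, 7.74 and 0.802 CPM in the intact and 1.16, 0.872 and 0.266 CPM in the lesioned libraries (−3.89 ± 0.96, adjusted p = 0.00908). Intact 1 was the highest of the 6 libraries and intact 2 the second for all 3. Apoa1, of high-density lipoprotein, had 22.8, 8.34 and 1.27 CPM in the intact and 1.05, 0.793 and 0.533 CPM in the lesioned libraries (−3.77 ± 0.79, adjusted p = 0.0039). With Vtn these are 5 of the 6 genes of the list with the highest mean CPM in the intact hemisphere. Intact 1 was above intact 2, and intact 2 above intact 3, for 45 of the 48 genes. Over 40 members with at least 20 counts in intact 2, other than Vtn, the level in intact 1 was 3.35 times that in intact 2 at the median (1.98 to 5.38). Of 37 tested, 29 were called lower, with a median of −3.32. Without intact 1 there were 20 and without intact 1 and intact 2 there were 0, with a median of −0.12; limma-voom called 3, and not Alb (adjusted p = 0.095), Apoa1 (0.0771) or Mup3 (0.134). Apoa2 lost its call without lesioned 3 (0.051). Among the 10 largest falls of protein-coding genes whose groups did not overlap, with a mean of at least 2 CPM in 1 group, 8 were liver list members, and the enzyme gene Mat1a (10.5, 2.48 and 0.422 CPM in the intact and 0.411, 0.0396 and 0.266 CPM in the lesioned libraries), a hepatocyte gene that the list lacks, was the largest; limma-voom did not call it.

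**Figure D5:**
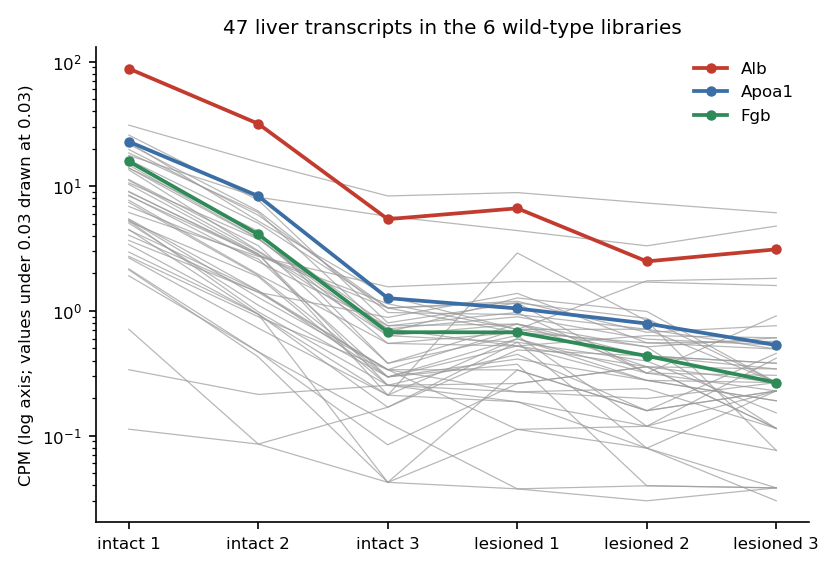
Level in CPM (vertical axis, log scale) of the liver list without Vtn in the 3 intact and the 3 lesioned wild-type libraries, with 1 line for each gene and Alb, Apoa1 and Fgb in colour. Nearly all lines descend from intact 1 over intact 2 to intact 3 and stay low after that, as for Apoa1 (22.8, 8.34 and 1.27 CPM, then 1.05, 0.793 and 0.533 CPM). They do not run level. The mean log2 CPM of the tested list members, minus that over the intact libraries, was −1.87 in intact 3. It was −1.49, −2.12 and −2.36 in lesioned 1 to 3, so lesioned 1 lay above intact 3.

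The same liver genes had a median change of 0.51 in the DKK1 hemispheres. More widely, 123 genes (0.698% of those tested) had at least 1 CPM in intact 1 and at least 3 times the level of each other intact library. Of these 24 were on the liver list, 34 were called lower and 51 were called higher in the lesioned hemisphere.

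The lesion response of wild-type mice was set against that of DKK1 mice, in which 8819 genes (50.1%) were called. Of the wild-type calls 5811 (88.8%) were called in the same direction there, which is 65.9% of the DKK1 calls, and 4 in the opposite one. Across genes, which are not independent, the changes correlated at r = 0.886. The medians of the phagocytic microglia list were 2.7 in wild-type and 3.58 in DKK1 mice, and those of the striatal list −0.80 and −0.75. Tested as an interaction, 1 gene (0.00568%) passed in edgeR. It was H2-T-ps, which carries the name of a pseudogene, with a log2 fold change of 0.16 ± 0.20 in wild-type and 2.78 in DKK1 mice, a difference of −2.63 ± 0.28 (adjusted p = 0.0148). Its read counts were 51, 34 and 38 in the intact and 44, 44 and 57 in the lesioned wild-type libraries, and reads of near-identical H2 genes can be shared with it. At an unadjusted p under 0.05 there were 1689 genes; DESeq2 called 65, limma-voom 0, and edgeR 288 with the block and 393 without lesioned 1.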

How the data were processed

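RNA was sequenced from 12 libraries, 3 for each genotype and hemisphere. Raw gene counts and length-scaled TPM values were deposited by the authors as 2 tables, per the file headers. The submitters' processing notes name STAR 2.7.0f, HOMER 4.11, DESeq2 and the mm10 build; the sources used here do not give their settings or say if strand was used, so overlapping and antisense genes cannot be told apart. Groups follow the labels.

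Counts were fitted with edgeR 4.0.16 (R 4.3.3) over all 12 libraries in 4 groups, with TMM scaling, genes kept by edgeR's filter at a minimum count of 10, and the robust quasi-likelihood test. The Benjamini-Hochberg adjusted p was called under 0.05 over 17612 genes. Log2 fold changes are lesioned minus intact with a standard error; log2 CPM uses a prior count of 2. Alternatives were DESeq2 1.42.0, limma-voom (limma 3.58.1), upper-quartile and RLE scaling, no or a stricter filter, the deposited TPM with a pseudocount of 1, the 6 wild-type libraries alone, liver genes removed, the replicate number as a block, and leaving libraries out. Tables and figures used Python 3.11.15, pandas 2.3.3 and matplotlib 3.10.9. On simulated counts over 17446 genes, the wild-type comparison recovered 70% of 2-fold rises and 96% of 4-fold rises, and called 0.0754% of unchanged genes. In the simulation 200 genes were changed and every other gene had the same mean in all 12 libraries. It held no pairing, no liver transcripts in single libraries and no outlying library, so these rates may not hold for the real comparison. No 2 libraries were copies of each other. Totals ran from 21209920 to 26911840 counts; intervals cover counting error only.

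Deviations from the group means correlated between same-numbered hemispheres (wild-type 0.488, 0.31 and 0.297, DKK1 0.276, 0.126 and 0.105). All were above 0.1, so the numbers were taken as pairs in the block fit alone, from the data and not from the labels. The main fit used no pairing. Correlations between libraries of unlike number were not computed. Members and lists were chosen with earlier results of these data known. Named genes are the 10 largest rises and falls among called protein-coding genes without overlap and with a mean of at least 2 CPM in 1 group, the first 3 and the 3 firmest members of each list, and members called against their list; other genes were chosen after their values were seen. A few genes that this rule names are not reported here.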

Additional observations from a re-analysis of the deposited data

Results flagged for a closer look

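In edgeR the test of the difference itself called 1 gene whose lesion response differed between genotypes. Limma-voom called 0 genes, and edgeR called 0 without any 1 of DKK1 intact 1, 2 or 3, DKK1 lesioned 2 or 3 and wild-type lesioned 2. H2-T-ps, whose name is that of a pseudogene of the major histocompatibility complex, had 1.91, 1.45 and 1.60 CPM in the intact and 1.65, 1.74 and 2.17 CPM in the lesioned wild-type libraries, so the groups overlapped. In DKK1 mice it had 1.03, 1.11 and 0.916 CPM in the intact and 5.87, 7.67 and 7.57 CPM in the lesioned libraries. The wild-type response minus the DKK1 response was −2.63 on the log2 scale (edgeR, adjusted p = 0.0148). Near-identical H2 genes can share its reads, and their part in the difference was not tested.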

How the results depend on the processing

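Across scalings, filters, DESeq2, limma-voom and the deposited TPM, the wild-type comparison gave 3123 to 4442 rises and 1982 to 3540 falls. The upper ends came from the replicate number as a block (4442 and 3540), where 6487 of the 6546 called genes were called too, and where, of 247 named genes, 15 gained and 1 (Ttr) lost a call, and the lower ends from the 6 wild-type libraries alone. Leaving out 1 library at a time gave 2780 to 3833 rises and 1677 to 2850 falls. Without intact 1 and intact 2 there were 1789 rises and 321 falls; 1 intact library then remained. Of 203 named genes that were called, 122 were called under every alternative and 160 when the last one is left aside. Hamp reversed without intact 1 and intact 2, to 0.12; both held liver transcripts. The difference between genotypes, 1 gene, became 65 genes with DESeq2, 0 with limma-voom, 288 with the replicate block and 0 to 393 with 1 library left out; the cause was not tested. Genes with a few counts in the intact hemisphere have wide intervals.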
